A study of Drosophila melanogaster with 32 samples.

Results

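The genes described here are the ligand, receptors and transcription factor of the Hedgehog pathway, hh, ptc, smo and ci, together with the homeobox genes en and inv. They were taken by FlyBase symbol from a table of read counts with 16257 genes, and all 6 members had a row. The table holds poly-A RNA of cells sorted by GFP fluorescence from larval ovaries of Drosophila melanogaster. The 30 libraries analysed form 10 groups of 3 biological replicates, which differ in the gene knocked down (hpo or yki, a kinase and the transcriptional coactivator it restrains in the Hippo pathway), the sorted cell type and the stage.

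Somatic cells came from larvae in which bab:GAL4 drove UAS GFP together with UAS hpo RNAi or UAS yki RNAi, at 72 hours after egg laying (early), 96 hours (mid) and 120 hours (late). Germ line cells came from the same pair of hairpins and GFP under nos:GAL4, at 96 and 120 hours. The early germ line samples, 1 per hairpin, are not analysed here, as no column of the table could be matched to them. Every library therefore carries a GAL4 driver, GFP and a hairpin, and no comparison is with untreated cells, since control columns of an earlier series were not used here. The bab driver is an insertion in bab1, and only cells that express it were marked and knocked down. The stock named for the germ line driver also carries UAS-Dcr-2, so cell type and driver stock cannot be told apart. In bulk RNA, fewer expressing cells and less RNA per cell cannot be told apart either.

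Hedgehog is a secreted protein. Without it, its receptor Patched keeps the membrane protein Smoothened inactive, and the transcription factor Cubitus interruptus is cut to a repressor. When Hedgehog binds Patched, Smoothened is released and full-length Cubitus interruptus activates targets, among them ptc itself. Engrailed and Invected are related homeodomain proteins made from neighbouring genes. In discs and embryonic segments they mark the cells that make Hedgehog and keep ci off, and in the adult ovary Engrailed and Hedgehog are found in terminal filament and cap cells at the tip of each ovariole. The stages sampled span the time when terminal filaments form.

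Gene positions below come from the BDGP6.54 annotation, matched by gene ID, and the build used for counting is not given in the sources used here. The ligand gene hh (FBgn0004644) lies on 3R, 23128169 to 23141906, on the minus strand, with 2370 bases of exon. The receptor gene ptc (FBgn0003892) lies on 2R, 8649649 to 8665223, plus strand, with 5521 bases of exon. The gene of the signal transducer, smo (FBgn0003444), lies on 2L, 277582 to 282167, plus strand, with 4008 bases of exon. Exons of CG11601 (498 bases) and CG17078 (587 bases) overlap those of smo on the other strand. The strand counted is not given in the sources used here. The estimated count of smo was whole in 0% of the 30 libraries, against 86.5% of the values of all genes (to within 1e-06), and the part of its reads shared with other genes is not known. The transcription factor gene ci (FBgn0004859) lies on chromosome 4, 47710 to 57041, minus strand, with 5651 bases of exon, 53 of them shared with the antisense gene asRNA:CR43957, and its counts were whole in 100% of the libraries. The 2R neighbours inv (FBgn0001269, 11474465 to 11509695, plus strand, 5919 bases of exon) and en (FBgn0000577, 11524006 to 11528210, minus strand, 2792 bases of exon) are 14310 bases apart.

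Library totals ranged from 15196700 to 75088400 counts. Levels below are counts per 1e+06 (CPM) of the library total scaled by edgeR's TMM factor. The targeted gene hpo averaged 16.0 to 23.9 CPM in somatic hpo RNAi groups and 98.0 to 139 CPM in somatic yki RNAi groups, and it was called in the labelled direction in all somatic and germ line comparisons. The other target, yki, averaged 24.0 to 30.8 CPM in somatic hpo RNAi groups and 7.16 to 15.5 CPM in somatic yki RNAi groups. Its difference was called early and at mid but not late in the soma (adjusted p = 0.245), and not in the germ line at mid (adjusted p = 0.715) or late (adjusted p = 0.951). Summed over 9 germ line markers the level was 320 to 833 CPM in somatic libraries and 5108 to 7898 CPM in germ line libraries. Most of that sum in the soma was tud, with group means of 362 to 756 CPM. Summed over 7 somatic gonad markers it was 1117 to 2843 CPM in the soma and 57.0 to 172 CPM in the germ line, where 11 of 12 libraries lay at or under 96.5 CPM and hpo RNAi mid replicate 1 at 172 CPM. Tests are edgeR's quasi-likelihood F test, and a gene is called where its Benjamini-Hochberg adjusted p over all genes tested is under 0.05. Counts of members at an unadjusted p under 0.05 have no share of all genes beside them, as that share was not computed.

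**Figure D1:**
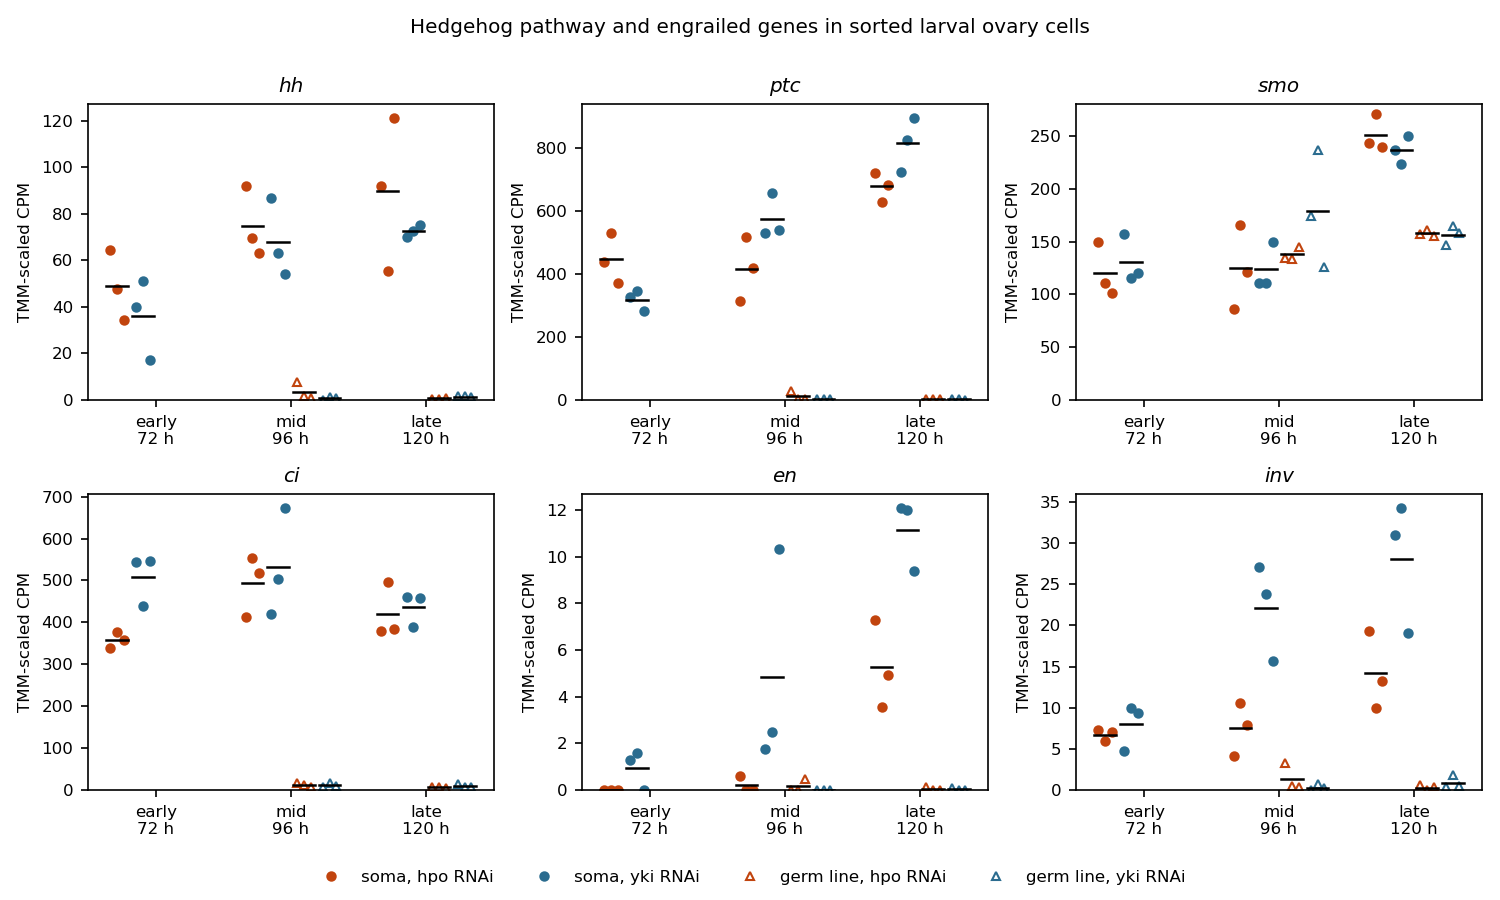
TMM-scaled CPM of the 6 members (y axis, linear, from 0, its range set per gene) in every library by stage (x axis, hours after egg laying). Filled circles are somatic and open triangles germ line libraries, orange hpo RNAi and blue yki RNAi, and black bars are means of 3 libraries. The somatic and germ line libraries are apart at mid and late for hh, ptc, ci and inv. For smo the cell types overlap at mid with TMM scaling, and within each hairpin they do not on unscaled library totals. Late, the somatic libraries (223 to 271 CPM) lie above the germ line ones (147 to 165 CPM).

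The ligand was present in the soma at all stages and nearly absent from the germ line. Under hpo RNAi, hh had 64.4, 47.6 and 34.6 CPM in early, 92.0, 69.6 and 63.3 CPM in mid and 92.1, 55.6 and 121 CPM in late somatic cells. Under yki RNAi it had 39.9, 50.9 and 17.2 CPM early, 86.7, 63.3 and 54.1 CPM mid and 70.0, 72.4 and 75.0 CPM late. The ranges of both hairpins overlapped at each stage, and the late yki RNAi libraries were the most alike. The log2 fold change of hh, hpo RNAi over yki RNAi, was 0.48 early (SE 0.33, 95% interval -0.20 to 1.17, adjusted p = 0.46), 0.14 mid (interval -0.55 to 0.82, adjusted p = 0.97) and 0.30 late (interval -0.38 to 0.99, adjusted p = 1), so no difference was detectable and a doubling is within the early interval. In the order of its 10 group means, from 89.6 CPM in late hpo RNAi soma to 0.688 CPM in late hpo RNAi germ line, each group overlapped the next except at the step from the lowest somatic group (36.0 CPM, early yki RNAi) to the highest germ line group (3.32 CPM, mid hpo RNAi).

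The receptor gene ptc, itself a target of the pathway, had the most reads of the members in late somatic cells. Early somatic cells had 438, 532 and 373 CPM under hpo RNAi, against 327, 345 and 284 CPM under yki RNAi. Mid somatic cells had 315, 518 and 421 CPM under hpo RNAi, against 531, 657 and 542 CPM under yki RNAi, and late ones 722, 631 and 685 CPM under hpo RNAi, against 725, 827 and 896 CPM under yki RNAi. The groups did not overlap at any stage, with hpo RNAi the higher group early and the lower one at mid and late. Groups without overlap made up 14.9% of genes early, 13.5% at mid and 24.9% late.

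None of these ptc differences passed the test over all genes. The log2 fold change, hpo RNAi over yki RNAi, was 0.53 early (SE 0.18, adjusted p = 0.129), -0.47 at mid (SE 0.18, adjusted p = 0.252) and -0.27 late (SE 0.18, adjusted p = 1). The change of this difference between early and mid, tested as an interaction of hairpin and stage, was -1.0 on the log2 scale (SE 0.26, unadjusted p = 0.000963, adjusted p = 0.137). It was not called by edgeR, which called 0 of 6 members there against 0.131% of all genes, with 2 members at an unadjusted p under 0.05. DESeq2, which called more of all genes there than edgeR, gave it an adjusted p of 0.0096 and called 1 member.

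For the transducer gene smo no difference between hairpins was detectable in the soma. In somatic cells it had 150, 111 and 101 CPM under hpo RNAi, against 157, 115 and 121 CPM under yki RNAi at the early stage, and 86.3, 166 and 121 CPM against 110, 111 and 150 CPM at mid. Late somatic cells had 243, 271 and 239 CPM under hpo RNAi, against 236, 223 and 250 CPM under yki RNAi. All 6 late libraries lay above all 12 earlier ones, while the hairpins overlapped at each stage. The share of all genes split by stage in this way was not computed. The log2 fold change, hpo RNAi over yki RNAi, was -0.08 early (interval -0.53 to 0.36), 0.01 at mid (interval -0.44 to 0.45) and 0.09 late (interval -0.36 to 0.53), with adjusted p of 0.925, 1 and 1.

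The transcription factor gene ci was at a high level in the soma at all stages. Early somatic cells had 340, 377 and 359 CPM under hpo RNAi, against 543, 438 and 545 CPM under yki RNAi. Mid somatic cells had 412, 554 and 519 CPM against 421, 503 and 673 CPM, and late ones 379, 496 and 384 CPM against 460, 390 and 458 CPM, hpo RNAi before yki RNAi. Only the early groups did not overlap, as for 14.9% of all genes. The early log2 fold change, hpo RNAi over yki RNAi, was -0.47 (SE 0.18, adjusted p = 0.181), and it was called, at -0.58 (adjusted p = 0.0406), when each library's trend over exon length was removed. At mid and late the change was -0.11 (interval -0.49 to 0.27, adjusted p = 0.945) and -0.06 (interval -0.44 to 0.32, adjusted p = 1).

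The engrailed gene en was at the lowest level of the members in the soma and was lower under hpo RNAi. Early somatic cells had no count of en in any hpo RNAi library, and 1.28, 1.6 and 0 CPM under yki RNAi. Mid somatic cells had 0.605, 0 and 0 CPM under hpo RNAi, against 1.75, 2.48 and 10.3 CPM under yki RNAi, and late ones 7.30, 3.55 and 4.93 CPM under hpo RNAi, against 12.1, 12 and 9.40 CPM under yki RNAi. At mid and late every hpo RNAi library lay under every yki RNAi library, and early yki RNAi replicate 3 shared the value 0 with hpo RNAi. Groups without overlap, in either direction, made up 13.5% of all genes at mid and 24.9% late.

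Averaged over the stages en was lower under hpo RNAi, with a log2 fold change of -4.61 (SE 1.05, adjusted p = 0.0124). This value takes in the early group with no count, depends on the fitting of zeros and is no measure of size. From pooled counts, early en was at least 30.1-fold lower under hpo RNAi, with 0 counts against 116 under yki RNAi. Here 3 counts over the group stood as the limit of 0 counts (0.0328 CPM). The bound covers counting error only and not the spread between replicates, as yki RNAi replicates 1, 2 and 3 had 58, 58 and 0 counts. With 1 library left out this bound was 16.7-fold (without hpo RNAi replicate 1) to 43.3-fold (without yki RNAi replicate 3). By stage the fitted change was not called, with adjusted p of 0.08 early, 0.192 at mid and 1 late, and the late log2 fold change was -1.08 (SE 1.39, interval -4.03 to 1.86). The late group means were 5.26 ± 1.89 CPM under hpo RNAi, compared with 11.2 ± 1.53 CPM under yki RNAi (SD, n = 3 each). The average was called with each of the 18 libraries left out, and its log2 fold change was -6.47 without mid hpo RNAi replicate 1, the only mid hpo RNAi library with counts of en. The single-stage calls depended on the tool and the libraries: early en was called by DESeq2 (adjusted p = 0.0017), without a filter on low counts (adjusted p = 0.0294) and without yki RNAi replicate 3 (adjusted p = 0.0394), mid en by DESeq2 (adjusted p = 0.0149) and without hpo RNAi replicate 1 (adjusted p = 0.0251), and late en in a fit of the 6 late libraries alone (adjusted p = 0.0492).

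The neighbouring gene inv was also lower under hpo RNAi. Early somatic cells had 7.28, 5.93 and 7.0 CPM under hpo RNAi, against 4.80, 9.99 and 9.35 CPM under yki RNAi. Mid somatic cells had 4.10, 10.5 and 7.89 CPM under hpo RNAi, against 27.1, 23.8 and 15.7 CPM under yki RNAi, and late ones 19.3, 9.99 and 13.2 CPM under hpo RNAi, against 31.0, 34.3 and 19.0 CPM under yki RNAi. The groups were apart at mid, nearly apart late, where one hpo RNAi library lay just above the lowest yki RNAi library, and overlapped early.

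At mid, inv fell by 1.56 on the log2 scale under hpo RNAi relative to yki RNAi (SE 0.40, adjusted p = 0.0398), and it was the 1 member of 6 called there, against 2.5% of all genes. The late change was -0.98 (SE 0.39, adjusted p = 0.57) and the early one -0.21 (SE 0.39, adjusted p = 0.873). Averaged over stages inv fell by 0.92 (SE 0.23, adjusted p = 0.0177), so that en and inv were the 2 of 6 members called in the average, against 5.48% of all genes. Early and late, edgeR called 0 of 6 members, against 2.45% and 1.03% of all genes, with 3 members early and 1 late at an unadjusted p under 0.05. DESeq2, which called more of all genes than edgeR at both stages, called 1 member early and 0 late. The mid call of inv was lost without hpo RNAi replicate 1 or 3 or yki RNAi replicate 1 or 2 (adjusted p from 0.122 to 0.161), with the trend over exon length removed (adjusted p = 0.0837) and in a fit of the mid libraries alone (adjusted p = 0.153). The average was lost without late hpo RNAi replicate 2 (adjusted p = 0.053) or late yki RNAi replicate 2 (adjusted p = 0.0548). With a term for replicate number in the fit, both the mid call (adjusted p = 0.066) and that of the average (adjusted p = 0.0529) were lost.

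**Figure D2:**
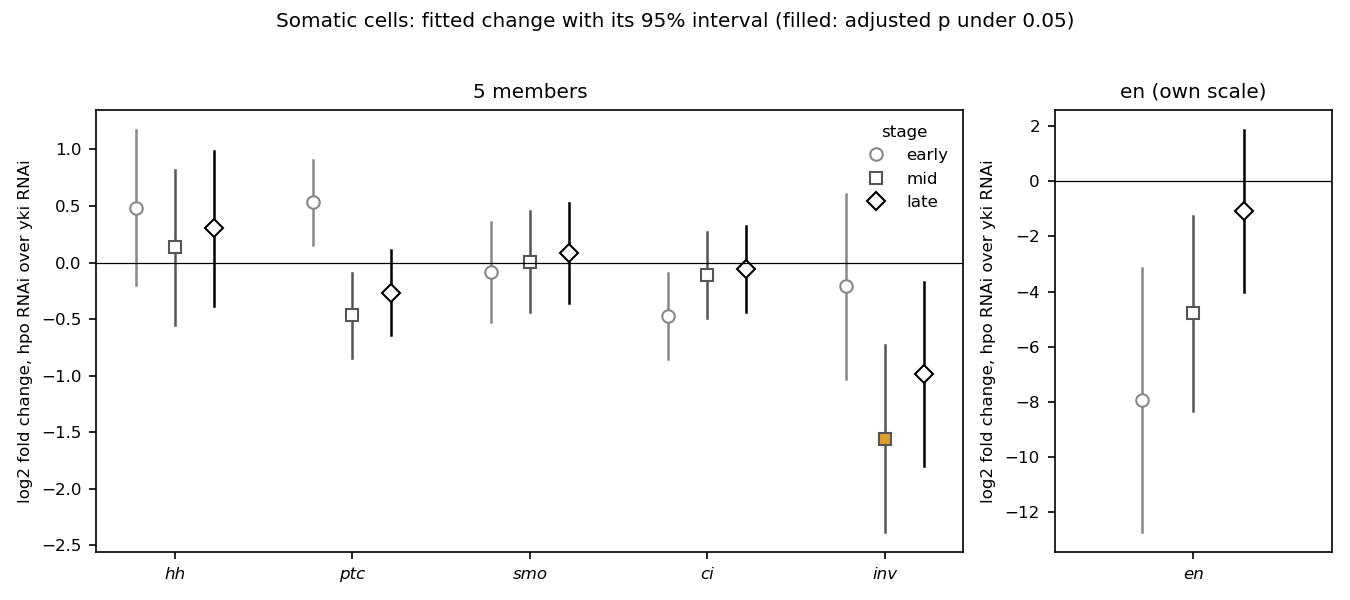
Fitted hpo RNAi over yki RNAi log2 fold change in somatic cells (y axis) for each member (x axis) at the early (circle), mid (square) and late (diamond) stage, from 6 libraries a stage, with its 95% interval as a bar. The filled square is inv at mid (-1.56), the only change called at a single stage. The right panel shows en on a wider scale, where the early value is fitted to a group with no count.

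Over the 18 somatic libraries en and inv varied together only in part. Pearson's r between them was 0.67 on log2 CPM, a description over libraries that share stage and hairpin. Mid yki RNAi replicates 1 and 2 had inv at 27.1 and 23.8 CPM, near the late yki RNAi libraries, with en at 1.75 and 2.48 CPM. Replicate 3 of that group had more en, at 10.3 CPM, and less inv, at 15.7 CPM. It also had the highest terminal filament sum of the early and mid libraries (1538 CPM over bab1, bab2, Lmx1a and LamC). Its somatic gonad (1936 CPM), germ line (547 CPM) and neuron (58.2 CPM) marker sums were the highest of those libraries too. A link of en to any of these marker lists was not tested. Per kilobase of exon, group means of inv in the soma were 1.14 to 4.75 RPKM and those of en 0 to 4.0 RPKM, while hh had 15.2 to 37.8 RPKM, smo 30.1 to 62.7 RPKM, ptc 57.7 to 148 RPKM and ci 63.5 to 94.2 RPKM.

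**Figure D3:**
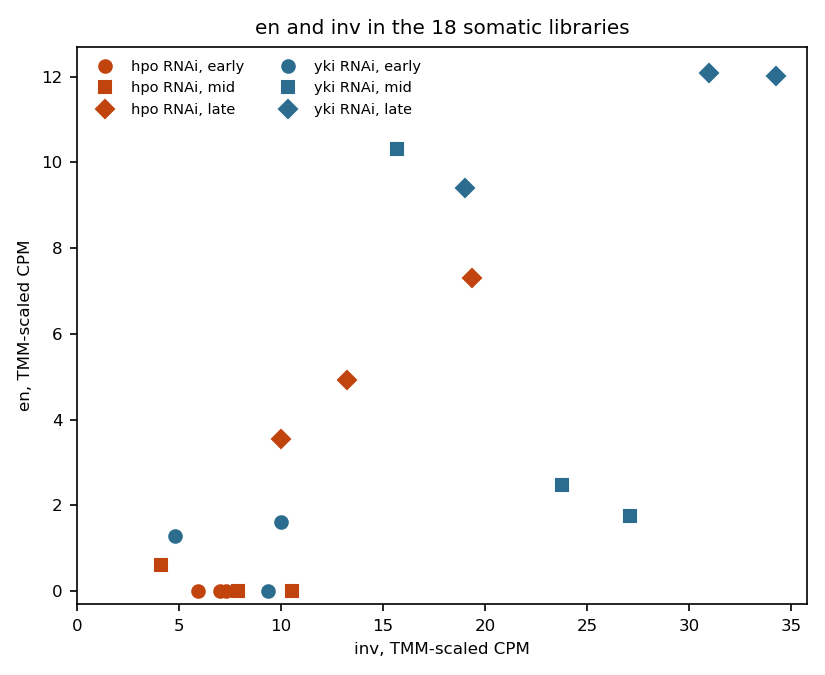
TMM-scaled CPM of en (y axis) and inv (x axis) in each of the 18 somatic libraries, orange hpo RNAi and blue yki RNAi, with circles for early, squares for mid and diamonds for late. All hpo RNAi libraries lie at or under 19.3 CPM of inv and 7.30 CPM of en, and mid yki RNAi replicates 1 and 2 have high inv with en under 2.5 CPM.

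Single marker genes differed between hairpins in the same libraries, while the sum of the terminal filament markers overlapped at every stage. Early it did so only through hpo RNAi replicate 1 (917 against 915 CPM), and at mid only through replicate 2 (1062 against 1053 CPM). The median log2 fold change of these markers, hpo RNAi over yki RNAi, was -0.50 early, -0.48 at mid and -0.09 late. The 4 terminal filament markers summed to 727 to 917 CPM in early hpo RNAi libraries and 915 to 956 CPM in early yki RNAi libraries. At mid the sums were 810 to 1062 CPM under hpo RNAi and 1053 to 1538 CPM under yki RNAi, and late 1568 to 1849 CPM and 1416 to 1947 CPM, with hpo RNAi first. Of these markers bab1, whose locus holds the driver, fell under hpo RNAi at mid (log2 -1.13, SE 0.19, adjusted p = 0.00242) and in the average (-0.77, adjusted p = 0.00013). The lamin gene LamC was higher under hpo RNAi late (log2 1.72, SE 0.22, adjusted p = 0.000232) and in the average (0.49, adjusted p = 0.0176), while bab2 and Lmx1a were not called in any of these comparisons. One of 4 disc markers, ap, which encodes a LIM-homeodomain protein, averaged 13.0, 14.6 and 19.1 CPM at the early, mid and late stage under hpo RNAi, compared with 174, 181 and 173 CPM under yki RNAi (log2 -3.71, -3.63 and -3.18, each called). The other disc markers vg, Dll and nub averaged 1.53 CPM or less in all somatic groups. The somatic gonad marker zfh1 was called higher under hpo RNAi early, a call lost in 2 of 6 fits with 1 library left out. The part of these differences in those of en and inv was not tested.

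In germ line cells 4 of the 6 members were at trace levels, and edgeR called none of the 5 members tested between hairpins, against 0.103% of all genes at mid and 0.187% late. At an unadjusted p under 0.05 there were 2 members at mid and 0 late, and DESeq2 called 0 at both stages. Mid germ line cells had 29.9, 3.22 and 2.14 CPM of ptc under hpo RNAi, compared with 2.14, 2.25 and 2.31 CPM under yki RNAi, and late ones 2.22, 1.94 and 2.24 CPM against 3.88, 1.97 and 1.49 CPM. For hh the values were 7.53, 1.75 and 0.680 CPM under hpo RNAi, against 0.183, 1.25 and 0.894 CPM under yki RNAi at mid, and 0.627, 0.595 and 0.841 CPM against 1.77, 1.63 and 1.09 CPM late. Replicate 1 of mid hpo RNAi was the highest of the 12 libraries for both genes. The late groups overlapped for ptc and not for hh, as for 17% of all genes, and the late hh value was -1.10 (SE 0.95, adjusted p = 0.858).

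The same library had the highest somatic gonad sum (172 CPM) and a hemocyte sum of 50.6 CPM, against 14.0 CPM or less in the other germ line libraries. Relative to the mean of mid hpo RNAi somatic cells its level was 7.17% for ptc, 10.0% for hh, 3.25% for ci and 43.2% for inv. Of the somatic gonad markers, bab1 was at 82.3%, zfh1 at 27.5%, Lmx1a at 19.5%, bab2 at 5.73% and tj at 1.70% of that mean, eya had no count, and Six4 had 1.45 CPM with no count in those somatic cells. This library was the highest of the 12 for bab1, bab2, Lmx1a, zfh1 and Six4, but not for tj, where mid yki RNAi replicate 2 had 5.29 CPM against its 4.18 CPM, nor for eya. With it, the mid log2 fold change, hpo RNAi over yki RNAi, was 2.44 for ptc (SE 0.81, adjusted p = 0.698) and 2.15 for hh (SE 0.97, adjusted p = 0.711). Without it the values were 0.32 (adjusted p = 0.98) and 0.70 (adjusted p = 0.965). Late over mid under hpo RNAi, ptc was at -2.48 (adjusted p = 0.645) and hh at -2.27 (adjusted p = 0.749), and without that library at -0.37 and -0.85 (adjusted p = 1 for both).

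**Figure D4:**
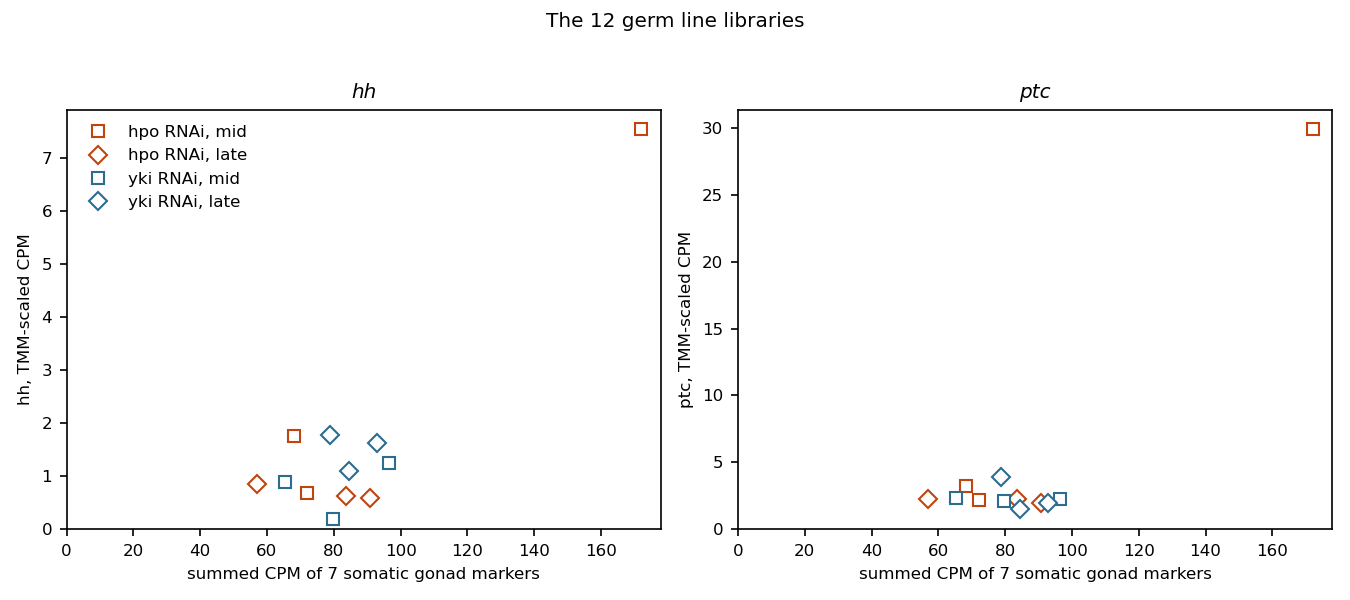
TMM-scaled CPM of hh (left) and ptc (right) in each of the 12 germ line libraries (y axes) against the summed CPM of 7 somatic gonad markers (x axes), orange hpo RNAi and blue yki RNAi, squares mid and diamonds late. One library, mid hpo RNAi replicate 1, lies apart at 172 CPM of the markers, 7.53 CPM of hh and 29.9 CPM of ptc, and the other 11 have at most 1.77 CPM of hh and 3.88 CPM of ptc.

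The remaining members did not differ detectably between the germ line groups. The range of ci over the 12 libraries was 5.11 to 16.1 CPM, with a median of 8.02 CPM, and its log2 fold change, hpo RNAi over yki RNAi, was 0.11 at mid (interval -0.75 to 0.98, adjusted p = 0.969) and -0.61 late (interval -1.48 to 0.26, adjusted p = 0.779). Mid hpo RNAi replicate 1 had the highest ci value, and without it the mid change was -0.23 (adjusted p = 0.978). For inv the range was 0 to 3.24 CPM, the highest again in mid hpo RNAi replicate 1, and the changes were 2.27 at mid (SE 1.72, adjusted p = 0.788), 0.69 at mid without that library (adjusted p = 0.986) and -1.51 late (SE 1.69, adjusted p = 0.903). Only en was too low to be tested within the germ line, with no count in 9 of 12 libraries and at most 0.461 CPM (40 counts, mid hpo RNAi replicate 4). Unlike these genes smo was abundant, with 135, 134 and 145 CPM in mid hpo RNAi, 174, 237 and 126 CPM in mid yki RNAi, 158, 161 and 156 CPM in late hpo RNAi and 147, 165 and 158 CPM in late yki RNAi germ line cells. For smo the hpo RNAi over yki RNAi value was -0.30 at mid (interval -0.68 to 0.08, adjusted p = 0.752) and 0.03 late (interval -0.35 to 0.41, adjusted p = 0.993). Between late and mid germ line cells edgeR called 0 of 5 members under either hairpin, against 0% and 0.0187% of all genes, with 2 members at an unadjusted p under 0.05 under hpo RNAi and 0 under yki RNAi, and DESeq2 called 0.

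Soma and germ line were compared within each hairpin at mid and late, where 37.9% (hpo RNAi mid), 36.7% (hpo RNAi late), 38.8% (yki RNAi mid) and 38.1% (yki RNAi late) of all genes were called. Higher in the soma were 4 of 6 members in the first of these comparisons (19.4% of all genes), 6 of 6 in the second (19.1%), 5 of 6 in the third (19.5%) and 6 of 6 in the fourth (19.8%), and smo was lower in the third. The log2 fold change of soma over germ line was 5.46, 6.05, 5.61 and 5.48 for ci, each with an SE of 0.35 or less, and 5.17, 8.31, 8.01 and 8.39 for ptc, in the order hpo RNAi mid, hpo RNAi late, yki RNAi mid, yki RNAi late. The same values for hh were 4.54, 6.99, 6.46 and 5.61. Without mid hpo RNAi germ line replicate 1 the first of these values was 7.30 for ptc, 6.01 for hh and 5.80 for ci. For these 3 genes the adjusted p was 1.51e-06 or less in every comparison, and every somatic library lay above every germ line library, as did 22.4%, 28.3%, 20.4% and 29.9% of all genes in that order of comparisons.

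For inv the soma was higher by a log2 of 2.46 (adjusted p = 0.0363), 5.59, 6.26 and 5.04. The first value was 4.05 without mid hpo RNAi germ line replicate 1. Its call was lost without replicate 2 or 3 of the somatic or replicate 3 or 4 of the germ line group (adjusted p from 0.0643 to 0.129). It was also lost in a fit of the compared libraries alone (adjusted p = 0.0901) and with a term for replicate number (adjusted p = 0.0522). From pooled counts, and with counting error only, en was at least 163-fold higher in the soma under yki RNAi at mid (434 counts against 0). This bound was 92.8-fold without somatic replicate 3, which held more than all other counts together, 71.9-fold without germ line replicate 4 and up to 211-fold without somatic replicate 2. Late, the ratio was 250 under hpo RNAi (464 against 2 counts, exact 95% interval of the counts 68.8 to 2071) and 477 under yki RNAi (821 against 2 counts, interval 132 to 3942). These ratios were 122 without germ line replicate 4 under hpo RNAi and 257 without germ line replicate 3 under yki RNAi. Both germ line counts lay in replicate 1 at each hairpin, and without it the bounds were at least 138-fold and 221-fold. Under hpo RNAi at mid en was not called (adjusted p = 0.992), and both cell types had at most 0.605 CPM in any library. The late hpo RNAi call of en (adjusted p = 0.0152) was lost without germ line replicate 2 (adjusted p = 0.0645) or 4 (adjusted p = 0.0651).

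For smo the sign of the difference was not the same at mid and late, and the change between stages was not itself tested. At mid the soma was at a log2 of -0.15 relative to the germ line under hpo RNAi (SE 0.21, adjusted p = 0.623) and -0.53 under yki RNAi (SE 0.21, adjusted p = 0.0436), and late at 0.67 (SE 0.21, adjusted p = 0.012) and 0.60 (SE 0.21, adjusted p = 0.0237). For smo the mid yki RNAi call was lost without somatic replicate 1 or 2 or germ line replicate 2 or 3 (adjusted p from 0.0749 to 0.326), without the trend over exon length (-0.30, adjusted p = 0.201) and in a fit of the compared libraries alone (adjusted p = 0.127). The late yki RNAi call was lost without somatic replicate 1 or 3 or germ line replicate 1 or 3 (adjusted p from 0.0546 to 0.0788), and the late hpo RNAi call was kept in all of these. Of the genes that overlap smo, CG17078 averaged 164 to 200 CPM in germ line groups and 61.8 to 92.3 CPM in somatic groups, and its part in the counts of smo was not tested.

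Differences between hairpins were also compared between soma and germ line. Here 0 of 6 members were called at either stage, against 0.165% of all genes at mid and 0.182% late. At an unadjusted p under 0.05 there were 4 members at mid and 0 late, and the share of all genes at that threshold was not computed. At mid the interaction of ptc was -2.84 (SE 0.76, adjusted p = 0.136). It was called by DESeq2 (adjusted p = 0.014), which called more of all genes there than edgeR. In edgeR it was called without germ line hpo RNAi replicate 3 (adjusted p = 0.0364) or 4 (adjusted p = 0.0117). Without replicate 1 of that group it was -0.70 (adjusted p = 0.644).

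Over time, smo and ptc were higher in late than in mid somatic cells. Late over mid, smo rose by a log2 of 1.04 under hpo RNAi (SE 0.21, adjusted p = 0.00216) and 0.97 under yki RNAi (SE 0.21, adjusted p = 0.00457), and ptc by 0.73 under hpo RNAi (SE 0.18, adjusted p = 0.00831). Under yki RNAi the ptc value was 0.53 (SE 0.18, adjusted p = 0.0593). These made 2 of 6 members called under hpo RNAi and 1 of 6 under yki RNAi, where edgeR called 15.8% and 13.2% of all genes. DESeq2 called 3 and 2 members, and its share of all genes is not given here. With the trend over exon length removed, which moved the median change of all genes under hpo RNAi to -0.10 from 0.04, ptc was at 0.32 under hpo RNAi (adjusted p = 0.215) and ci was lower by 0.63 (adjusted p = 0.00683), against -0.20 (adjusted p = 0.53) with TMM alone. Under yki RNAi ci was at -0.53 (adjusted p = 0.0237) with that trend removed and -0.26 (adjusted p = 0.426) with TMM alone.

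Between early and mid, ptc rose by a log2 of 0.87 under yki RNAi (SE 0.18, adjusted p = 0.027), the 1 member of 6 called, against 0.684% of all genes. Its call was lost without early replicate 1, 2 or 3 or mid replicate 2 or 3 (adjusted p from 0.0548 to 0.152) and in a fit of the compared libraries alone (adjusted p = 0.166). Under hpo RNAi ptc was at -0.13 (interval -0.51 to 0.25, adjusted p = 0.812), and 0 of 6 members were called against 2.72% of all genes, with 2 at an unadjusted p under 0.05 and 0 called by DESeq2. For inv the mid over early value was 0.14 under hpo RNAi (SE 0.39, adjusted p = 0.941), compared with 1.48 under yki RNAi (SE 0.39, adjusted p = 0.108). DESeq2 called the yki RNAi rise of inv (adjusted p = 0.0195). The difference between hairpins in this change was not called by edgeR (-1.34, SE 0.55, adjusted p = 0.333). For hh the mid over early value was 0.58 under hpo RNAi (SE 0.33, adjusted p = 0.35), compared with 0.93 under yki RNAi (SE 0.33, adjusted p = 0.281). Its difference between hairpins was not called either (-0.35, SE 0.46, adjusted p = 0.889). Late over mid en was at 4.93 under hpo RNAi (SE 1.69, adjusted p = 0.0579) and 1.23 under yki RNAi (SE 1.40, adjusted p = 0.684). The difference between hairpins in this change was not called (3.71, SE 2.08, adjusted p = 0.78). The hpo RNAi value rests on 9 counts in mid replicate 1, was 10.5 without that library and is no measure of size. Under hpo RNAi the late over mid change of en was called by DESeq2 (adjusted p = 0.00361), without a low-count filter (adjusted p = 0.0286), with a stricter one (adjusted p = 0.0378) and without mid hpo RNAi replicate 1 (adjusted p = 0.00615).

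Marker levels moved with the late stage too. The hemocyte sum was 1031 to 2045 CPM in late somatic libraries and 31.3 to 212 CPM in the earlier ones. Most of it was Pxn, with 1059 CPM in late hpo RNAi and 1844 CPM in late yki RNAi cells, while the defining markers eater, NimC1 and Hml averaged 1.33 CPM or less and He had no count in any group. The somatic gonad sum was 2387 to 2843 CPM late and 1117 to 1936 CPM before. The germ line sum was 643 to 833 CPM late and 320 to 547 CPM before, and the sum over 5 muscle markers was 1.42 to 4.64 CPM late and 8.01 to 41.3 CPM before. The part of these shifts in the stage differences of the members was not tested.

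The pathway around the members was followed in a list of 25 other genes, 24 of them tested in the soma. Between hairpins 0 of 24 were called early, against 2.45% of all genes. At mid 1 of 24 fell, against 2.12% of all genes, and late 1 of 24 rose, against 0.422%, counts too small to set the list apart. The BTB protein gene rdx, whose product targets Cubitus interruptus for breakdown and which is a Hedgehog target in discs, averaged 48.9 ± 8.56 CPM in mid hpo RNAi and 91.2 ± 10.4 CPM in mid yki RNAi cells (SD, n = 3 each, log2 -0.90, adjusted p = 0.0212). This call was lost without hpo RNAi replicate 1 or 2 or yki RNAi replicate 2 or 3 (adjusted p from 0.0513 to 0.107), with the trend over exon length removed (adjusted p = 0.0748) and in a fit of the mid libraries alone (adjusted p = 0.0744). In the average over stages rdx fell by 0.71 under hpo RNAi (SE 0.12, adjusted p = 0.00086). The glypican gene dally, which helps Hedgehog spread and bind at the cell surface, averaged 357 ± 6.92 CPM in late hpo RNAi and 133 ± 27.8 CPM in late yki RNAi cells (log2 1.42, adjusted p = 0.000548), and was higher by 0.59 in the average (adjusted p = 0.00252). The list's median change lay between -0.10 and 0.12 at the 3 stages, and that over all genes tested was 0.02 or less in size.

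Late over mid, 11 of 24 list genes rose under hpo RNAi and 7 of 24 under yki RNAi, and 0 fell. Of all genes 9.43% rose and 6.38% fell under hpo RNAi, and 6.65% rose and 6.53% fell under yki RNAi. With the trend over exon length removed, 4 rose and 0 fell under hpo RNAi, and 5 rose and 2 fell under yki RNAi. The hpo RNAi count was 6 without mid replicate 1, 6 without mid replicate 3, 7 without late replicate 1 and 5 without late replicate 3, and the yki RNAi count was 4 without mid replicate 1. The median change of the list was 0.62 under hpo RNAi and 0.37 under yki RNAi, with 0.04 and 0.00 over all genes. Called under both hairpins were shf, which encodes a secreted factor that stabilises Hedgehog, and ttv, an enzyme of heparan sulphate synthesis needed for Hedgehog movement. So were the co-receptor gene boi, the kinesin-like scaffold gene cos and Gprk2, which encodes a G protein-coupled receptor kinase. The largest of these in reads was boi, with 796 ± 105 CPM in late and 163 ± 54.4 CPM in mid hpo RNAi cells, and 448 ± 102 CPM in late and 187 ± 63.7 CPM in mid yki RNAi cells (SD, n = 3 each). Only under hpo RNAi were dally, ihog, Pka-C1, sgg, rdx and caup called, and only under yki RNAi sotv and botv, and the difference between hairpins in these stage changes was called for 0 of 24 list genes, with dally at an adjusted p of 0.0614.

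**Figure D5:**
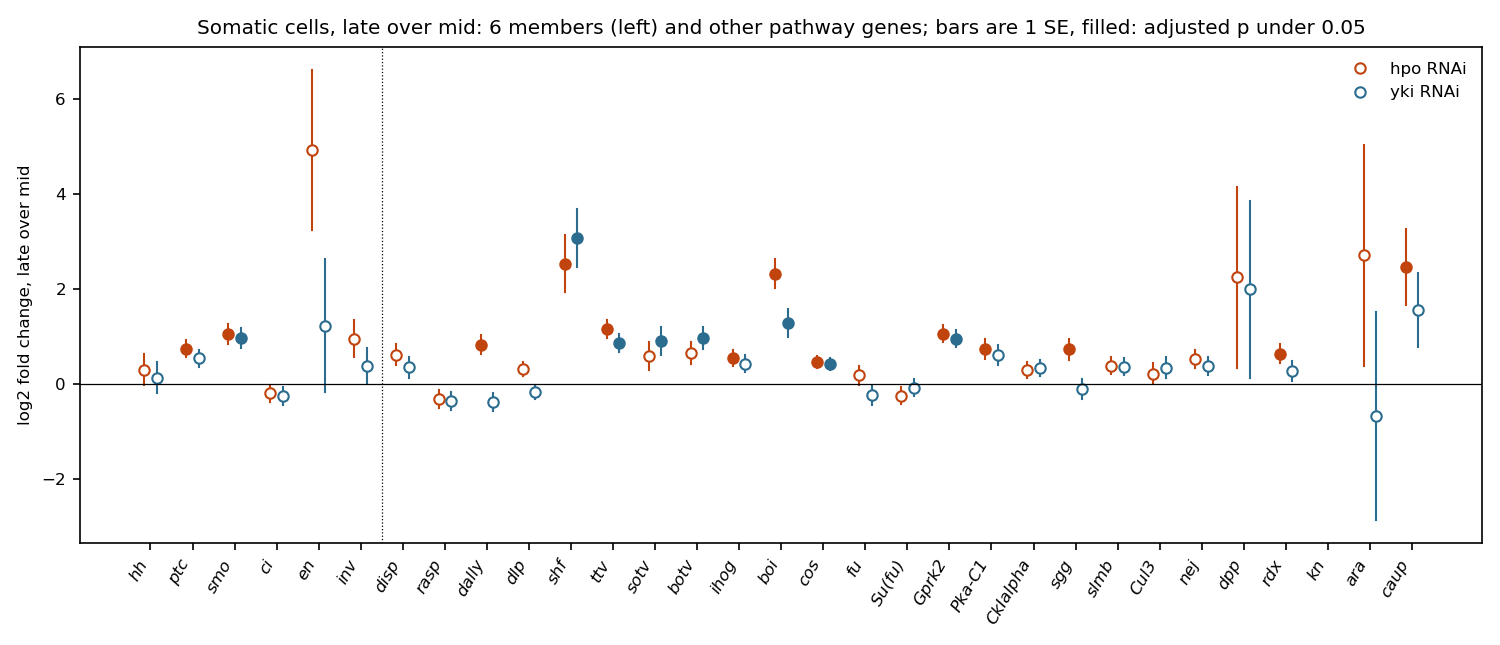
Fitted log2 fold change of late over mid somatic cells (y axis) for the 6 members (left of the dotted line) and the other pathway genes (x axis), orange hpo RNAi and blue yki RNAi, each from 6 libraries. Bars are 1 SE and filled points have an adjusted p under 0.05. Filled points are all above 0, smo is filled under both hairpins, ptc under hpo RNAi only, and kn was not tested.

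Between soma and germ line the pathway list was split. Higher in the soma were 10, 15, 9 and 13 of 25 genes, and lower 6, 4, 8 and 4, in the order hpo RNAi mid, hpo RNAi late, yki RNAi mid, yki RNAi late. Of all genes 19.4%, 19.1%, 19.5% and 19.8% were higher in the soma and 18.5%, 17.6%, 19.4% and 18.3% lower, in that order. Among genes of ligand release and reception, those higher in all 4 comparisons were disp and rasp, which release and acylate Hedgehog, the glypican genes dally and dlp, and the co-receptor genes ihog and boi. For dally the log2 fold change was 5.73 to 9.61. Su(fu), an inhibitor of Cubitus interruptus, the kinase gene CkIalpha and the Iroquois gene caup were also higher in all 4. Lower in the soma in all 4 were the cytoplasmic components cos and fu, the protein kinase A gene Pka-C1 and the ubiquitin ligase gene Cul3, by 0.40 to 2.26 on the log2 scale.

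Across the 18 somatic libraries the genes whose log2 CPM followed each member most closely were taken from 7021 candidates (7022 for en), as a description over libraries that share stage and hairpin. The closest to hh was Gba1b (Pearson's r 0.84), and CG7860 and CG11597 followed. For ptc they were Mhcl (0.90), rtet and g, and for smo Ptp69D (0.98), DCP2 and shep. Those of ci were mt:ND5 (0.78), CG33062 and mt:Cyt-b. The closest to en was drm (0.92), with Svil and Cirl next, and to inv Mal-A5 (0.87), with CG6231 and Cerk. Among the members themselves the highest r were 0.76 between ptc and inv and 0.75 between ptc and smo.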

How the data were processed

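Expected counts per gene, with FlyBase IDs and not normalized, were deposited by the authors in 1 wide table. Per the submitters' processing notes the tools were bcl2fastq 2.2, STAR 2.7.6a, RSEM 1.3.3 and DESeq2 1.26.0, and per the labels' protocols the libraries were 50 bp single-end reads of poly-A RNA. The authors' build, annotation and strand setting are not given in the sources used here. Of the columns, 30 matched labelled samples, and 18 others were not used. Counts were rounded and tested with edgeR 4.0.16 in R 4.3.3 (TMM, filterByExpr with a minimum count of 10, trended dispersion, quasi-likelihood F test, Benjamini-Hochberg over all genes tested). The somatic fit had 18 libraries and 10672 genes, the germ line fit 12 and 10717, and the joint fit, used for soma over germ line and for printed CPM, 30 and 12089. Scripts were tested on simulated data. DESeq2 1.42.0, other filters, a length correction, a replicate block, fits of the compared libraries and leaving out each library were alternatives. Intervals and the floor of 3 counts cover counting error only where they come from pooled counts. Members and lists were chosen with earlier results of these data known. By rule the text names the 6 members, the pathway and terminal filament genes called between hairpins in the soma, the pathway genes called in all 4 soma over germ line comparisons, and the 3 genes closest to each member. Pathway genes named for late over mid fall outside that rule and were chosen after their values were seen. Named markers of the other lists also fall outside it. Replicates sharing a number were not paired. No sequences are shown.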

Additional observations from a re-analysis of the deposited data

How the results depend on the processing

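Of 672 values recomputed under other settings (size factors, filters, exon length, block, DESeq2, compared libraries alone), 634 kept their direction and side of the threshold and 7 changed sign, and of 732 with 1 library left out 665 did so and 31 changed sign. These 7, none of them called, were smo early in the soma (0.053), ci at mid in the germ line (-0.20), ptc late in the germ line (0.034) and smo mid over early under hpo RNAi (-0.13) with the replicate block, ci at mid in the soma (0.036) and mid over early under yki RNAi (-0.059) without the length trend, and smo late in the germ line (-0.00713) with the stricter filter. The number of members called between hairpins in the soma was 1 early without a filter, without the length trend and by DESeq2, 0 at mid with the block, without the length trend and in the compared libraries alone and 2 by DESeq2, 1 late in the compared libraries alone and 1 in the average with the block. Mid over early under yki RNAi it was 2 by DESeq2 and 0 in the compared libraries alone, and late over mid 2 with the block, without the length trend, by DESeq2 and in the compared libraries alone. DESeq2 called 1 member in the interactions with stage (mid minus early) and cell type (mid). The cause of these changes was not tested.

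With 1 library left out the members called ranged from 0 to 1 early, 0 to 1 at mid and 1 to 2 in the average between hairpins in the soma, 0 to 1 mid over early under yki RNAi and 0 to 1 in the interaction with cell type at mid. Log2 fold changes that crossed 0 ranged, between hairpins in the soma, from -0.27 to 0.086 for smo early, -0.030 to 0.34 for hh at mid, -0.25 to 0.22 for smo at mid, -0.26 to 0.11 for ci at mid and -0.19 to 0.0081 for ci late, and in the germ line from -0.23 to 0.43 for ci at mid, -0.47 to 0.31 for ptc late and -0.018 to 0.087 for smo late. Soma over germ line under hpo RNAi at mid they ranged from -0.41 to 0.059 for smo and -5.59 to 5.60 for en. Mid over early under hpo RNAi they ranged from -0.31 to 0.040 for ptc, -0.24 to 0.23 for smo, 0 to 6.15 for en and -0.18 to 0.43 for inv, and under yki RNAi from -0.25 to 0.097 for smo and -0.14 to 0.23 for ci. Late over mid under yki RNAi, hh ranged from -0.0040 to 0.33.

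Same-numbered deviations correlated weakly, at -0.08 to 0.10 in the soma and -0.07 to 0.18 in the germ line. Their median r was 0.001 in the soma, against -0.005 for other numbers, and 0.051 in the germ line, against -0.004. Of 30 libraries, 13 correlated best with a library of their own number. Pairs of the same number were 40 in the soma, against 95 of other numbers, and 12 in the germ line, against 42. How many best matches of the same number would arise by chance was not computed. Whether same-numbered libraries shared a batch cannot be told from these values. With the replicate block inv had an adjusted p of 0.066 at mid and 0.0529 in the average between hairpins and 0.0522 for soma over germ line under hpo RNAi at mid, and ptc late over mid under yki RNAi 0.0424. Over all genes, the counts called between hairpins in the soma were 261 early, 267 at mid, 110 late and 585 in the average, against 751, 520, 194 and 925 by DESeq2 and 76, 137 and 641 for the 3 stages in the compared libraries alone. In the germ line 11 at mid and 20 late stood against 76 and 100 by DESeq2, 26 and 56 without a filter, and 6 and 37 in the compared libraries alone. Mid over early, 290 under hpo RNAi and 73 under yki RNAi stood against 708 and 315 by DESeq2 and 52 and 16 in the compared libraries alone. Late over mid in the germ line, 0 under hpo RNAi and 2 under yki RNAi stood against 65 and 31 by DESeq2. The interactions had 14 (stage, mid minus early), 20 (cell type, mid) and 22 (cell type, late), against 210, 198 and 93 by DESeq2. Levels of hh, en and inv in the germ line rest on few counts and limit what could be detected there.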
